A study of Homo sapiens with 12 samples.

Results

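This account describes the early replicating regions (ERRs) that were listed only when CDK12 was silenced and Myc was switched on by OHT. They were found by joining overlapping or touching regions of the 4 deposited ERR lists on the 22 autosomes and keeping the joined regions that held a region of the shCDK12 + OHT list and of no other list. Of 4886 joined autosomal regions, 456 met this rule, which is 9.33% (95% Wilson interval 8.55% to 10.2%). They are called exclusive ERRs here. Each consisted of a single region of the shCDK12 + OHT list, which held 4676 autosomal regions, and together they covered 23.9 Mb, or 3.96% of the joined length. Presence in the lists chose these regions, so their number and their absence elsewhere are a description and were not tested.

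DNA replication starts at many origins, and those that fire at the beginning of S phase tend to lie in open, transcribed chromatin. In EdU-HU-seq, cells enter S phase in the presence of hydroxyurea, which depletes nucleotides and holds forks close to their origin, and of EdU, a thymidine analogue that marks the little DNA that was made. Sequencing of the marked DNA shows broad regions in which early origins fired. Myc is a transcription factor that drives entry into S phase and, when overactive, causes replication stress. CDK12 is a kinase that phosphorylates transcribing RNA polymerase II and keeps up the expression of long genes, many of them genes of DNA repair.

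The cells were U2OS-MycER, a human osteosarcoma line with Myc fused to the ligand-binding part of the estrogen receptor, so that OHT (4-hydroxytamoxifen) activates the fusion. All cells carried an inducible short hairpin RNA and received doxycycline at 1 µg/mL, and the hairpin was either non-targeting (shNT) or against CDK12 (shCDK12). The 4 conditions were shNT, shNT + OHT, shCDK12 and shCDK12 + OHT, with 3 samples each, and OHT was given at 300 nM for 40 h. Cells were arrested with 100 ng/mL nocodazole for 8 h and released for 24 h into 25 µM EdU and 2 mM hydroxyurea. The 3 samples of a condition were merged into 1 list by the authors, so no value has an error between cultures, and the model is 1 cell line in which the level of CDK12 is not measured by this assay. Autosomal regions held from 13220717 reads (shCDK12) to 49994993 reads (shNT + OHT), with 17261176 for shNT and 28573223 for shCDK12 + OHT. These counts were not scaled to library size, so read densities were compared inside a list first. All positions are on hg19, counted from 1, and the genes and sequences at these positions were not analysed here.

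The exclusive ERRs were of moderate and fairly even width. The narrowest spanned 1.6 kb, the median was 47.6 kb (95% interval of the median 45.6 to 51.2 kb) and the widest spanned 170.8 kb. Between the 25th and 75th percentiles the width ran from 36 to 65.2 kb, and 216 of the 456 (47.4%) reached 50 kb while 18 reached 100 kb. The regions that all 4 conditions shared were broader, with a median of 90 kb in the same list. The intervals of medians and shares given here cover the spread and number of regions in these lists only, not the spread between cultures.

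The widest exclusive ERR, chr1:167390801-167561600, covered 170.8 kb and held 4039 reads, or 23.6 reads per kb. It ended 41.6 kb before the nearest region of any other condition, a region of shNT + OHT, and the nearest regions of shCDK12 and shNT lay 47.6 and 60 kb away. The next region to its right was shared by every condition and was 113.6 kb wide with CDK12 silenced plus OHT, against 102.4 kb for shNT + OHT, 88.8 kb for shCDK12 and 77.2 kb for shNT. The second widest, chr4:152034401-152187600, covered 153.2 kb with 3107 reads and lay 6 kb from a shNT + OHT region. The third, chr9:100213201-100342000, covered 128.8 kb with 2947 reads and lay 98 kb from the nearest region of the other lists. The remaining 7 of the 10 widest spanned 117.6 to 125.2 kb.

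Among those 7, the surroundings differed widely. On chromosome 9, chr9:38114401-38239600 had 125.2 kb and 2988 reads, and filled 90.5% of the stretch between regions of the other lists, which began 8.8 kb to its left and 4.4 kb to its right. In contrast, chr6:39192801-39317200 had 124.4 kb and 2689 reads, and the nearest region of any other condition was 543.2 kb away. The region chr10:95954001-96074800 had 120.8 kb, 3419 reads and the second highest score of all exclusive ERRs, 975. Wide exclusive ERRs were thus found both in narrow gaps between regions of the other lists and far from them.

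**Figure D1:**
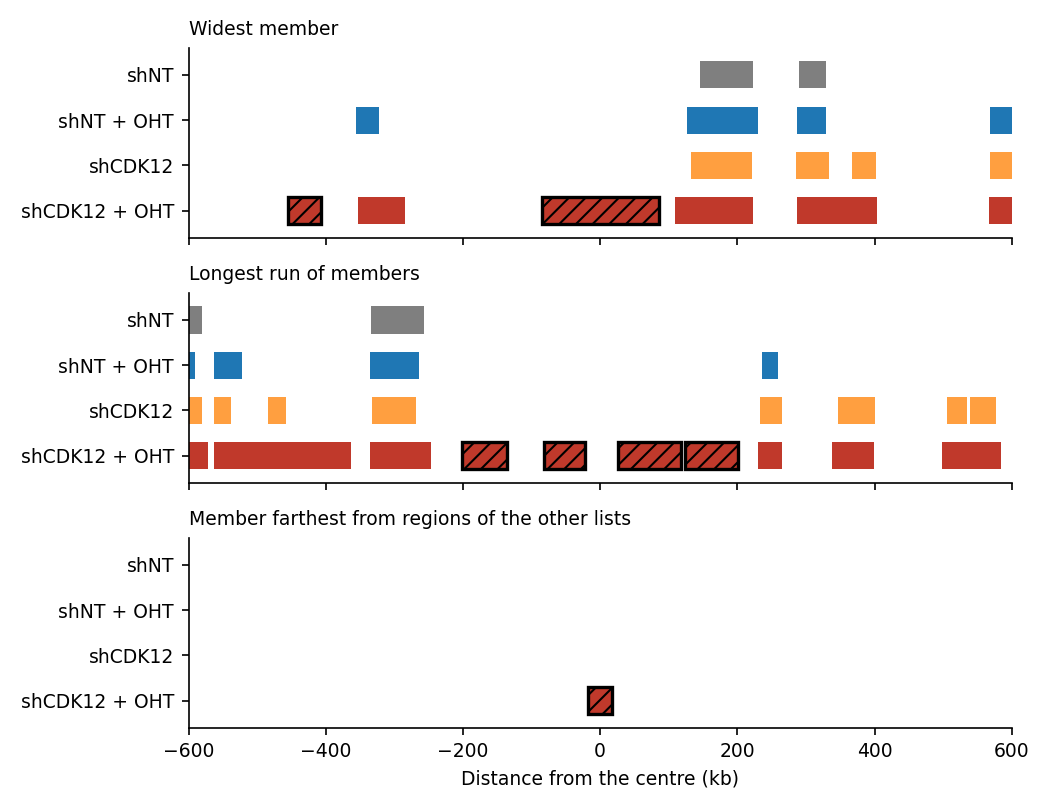
Regions of the 4 lists around the widest exclusive ERR, the longest run of exclusive ERRs and the exclusive ERR farthest from any region of the other lists, plotted by distance in kb from the centre of the exclusive ERR or run, with 600 kb shown on each side. Each bar is a region of the list named at the left, and hatched bars with a black outline are exclusive ERRs. In the run, the 4 exclusive ERRs fill a stretch without regions of the other 3 conditions, and around the farthest one no region of any other condition falls inside the stretch shown.

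Read density, the number of reads in a region divided by its width, was low in the exclusive ERRs relative to their own list. The median was 22.7 reads per kb, against 40.0 in the regions of the same list that all 4 conditions shared, a ratio of 0.568. Width moves with density, so regions of 25 to 95 kb were also compared. In that class 414 exclusive ERRs had a median of 22.7 reads per kb (95% interval 22.4 to 22.9) and 1520 shared regions one of 33.2 (32.4 to 34.1), a ratio of 0.684. The exclusive ERRs of the class ran from 0.517 to 0.923 times the shared median, so none reached it.

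**Figure D2:**
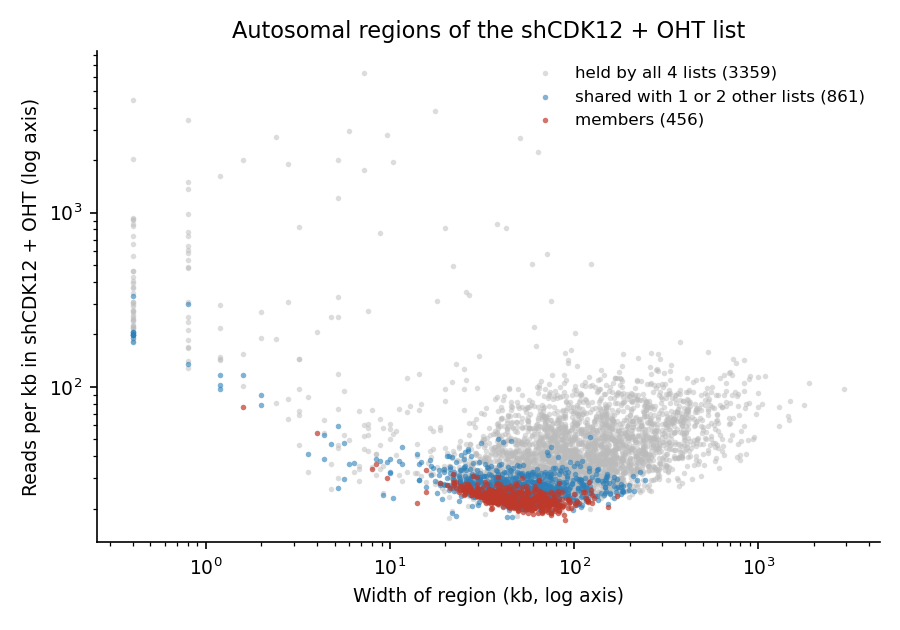
Width in kb against reads per kb, both on log axes, for the 4676 autosomal regions of the shCDK12 + OHT list. Each point is a region, and the 456 exclusive ERRs (members, red) lie along the lower border of the cloud under the 861 regions shared with 1 or 2 other lists (blue) and the 3359 held by all 4 (grey).

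The lower border of that cloud is where listed regions end, and it was set against the same border in the other lists. For regions of 25 to 95 kb, the 5th percentile of density was 0.630 times the median of shared regions in shCDK12 + OHT, 0.664 in shNT, 0.596 in shNT + OHT and 0.657 in shCDK12. On this relative scale, 265 of the 414 exclusive ERRs (64.0%) were above the 5th percentile of shNT, 275 (66.4%) above that of shCDK12, 338 (81.6%) above that of their own list and 390 (94.2%) above that of shNT + OHT. By definition 95% of the listed regions of this width lie above the 5th percentile of their own list, so exclusive ERRs were overrepresented at the weak end of shCDK12 + OHT. The reads of the other 3 conditions inside the exclusive ERRs are not among the values used here, so how far a signal was missing there could not be measured.

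The scores that the authors gave to regions placed the exclusive ERRs at the low end of their list as well. Scores ran from 137 to 1023 with a median of 200, and 396 of the 456 (86.8%) were in the lowest 25% of the shCDK12 + OHT list. Of the 467 regions in the lowest 10% of that list, 210 (45.0%) were exclusive ERRs. These scores were not adjusted for width, so they are not separate from width and density. Divided by the number of 400 bp windows in a region, the median score was 1.74 (95% interval 1.67 to 1.78). It was 8.13 (7.73 to 8.49) in the regions of the same list that all 4 conditions shared. A single exclusive ERR scored above the list's median of 1000. It was chr1:81941201-81942800, only 1.6 kb wide, with 123 reads and the highest density of all, 76.9 reads per kb. The other high scores belonged to wide regions, led by chr10:95954001-96074800 (975), chr1:167390801-167561600 (860), chr5:33574801-33698800 (719) and chr6:38671601-38754800 (682).

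Among exclusive ERRs of at least 10 kb, the densest were narrow. The highest value was 33.3 reads per kb in chr1:148845601-148861200, a region of 15.6 kb with 519 reads. It was followed by chr10:108258001-108280000 with 31.7 reads per kb over 22 kb, and by chr1:67611601-67640000 with 30.6 over 28.4 kb. Next came chr3:115704401-115734000 with 30.4 over 29.6 kb and chr5:78620401-78659200 with 30.2 over 38.8 kb. All 5 were under the median width of the exclusive ERRs, and their distance to the nearest region of another list ran from 30.8 kb on chromosome 1 to 1670.8 kb on chromosome 10.

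The regions held by 1 other list alone were set beside them. With OHT but without silencing, 227 joined regions were held by shNT + OHT alone and covered 5.67 Mb, and 113 were held by shCDK12 alone and covered 1.62 Mb. The counts of these sets depended on the limits of the lists. With a common lowest score they became 163 and 15, beside 689 exclusive ERRs, and with lists of equal number 131 and 37, beside 314. A further 24 joined regions were held by shNT alone, covered 0.866 Mb and had a median width of 34.4 kb. Regions of shNT + OHT alone and of shCDK12 alone had median widths of 26 kb and 13.6 kb, against 47.6 kb for the exclusive ERRs, and the 95% intervals of the medians (25.2 to 27.6, 3.6 to 20.4 and 45.6 to 51.2 kb) did not overlap. The widest region of shNT + OHT alone spanned 67.6 kb and the widest of shCDK12 alone 49.2 kb. The 25th percentile of width was 18.6 kb for shNT + OHT alone and only 0.8 kb for shCDK12 alone, against 36 kb for the exclusive ERRs. Widths also differed between the lists themselves. Regions shared by all 4 had medians of 80.8 kb in shNT + OHT, 69.6 kb in shCDK12 and 90 kb in shCDK12 + OHT. In density relative to the shared regions of their own list, at 25 to 95 kb, the median was 0.649 for shNT + OHT alone (95% interval 0.629 to 0.666, n = 129), 0.676 for shCDK12 alone (0.644 to 0.712, n = 30) and 0.684 for the exclusive ERRs (0.675 to 0.689). The interval of the exclusive ERRs lay above that of shNT + OHT alone and inside that of shCDK12 alone.

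Regions that shCDK12 + OHT shared with only 1 other condition were of similar width in this list. The 217 joined regions held by both silenced lists alone had a median of 46 kb in shCDK12 + OHT, and the 183 held by both OHT lists alone one of 48 kb. Their relative density at 25 to 95 kb was 0.737 (95% interval 0.724 to 0.757) and 0.719 (0.701 to 0.736), above the 0.684 (0.675 to 0.689) of the exclusive ERRs. In their other list, the same regions were narrower, with medians of 29.2 kb in shCDK12 and 33.6 kb in shNT + OHT.

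The distance to the nearest region of any other condition varied widely. It ran from 2 to 3239.2 kb with a median of 86.6 kb (95% interval 74.8 to 108.4 kb). A region of another list lay within 10 kb of 34 exclusive ERRs (7.46%), within 50 kb of 164 (36.0%) and within 100 kb of 243 (53.3%). At the other end, 48 (10.5%) were over 500 kb and 25 (5.48%) over 1000 kb away. To the lists they were missing from, the median was 94 kb (71.6 to 123.2 kb) for shNT + OHT alone and 147.2 kb (84.4 to 191.2 kb) for shCDK12 alone. Measured from their shCDK12 + OHT regions, it was 68 kb (52 to 83.2 kb) for both silenced lists and 88 kb (64.8 to 115.6 kb) for both OHT lists. Sets held by both lists of a pair were missing from fewer lists than the exclusive ERRs. Each of these intervals overlapped that of the exclusive ERRs. For the exclusive ERRs, the medians by list were 159.8 kb to shNT, 110.0 kb to shNT + OHT and 102.4 kb to shCDK12. The shNT list held fewer autosomal regions, 3796 against 4556 for shNT + OHT and 4799 for shCDK12. A list with fewer regions tends to lie farther from any place, and the distances were not adjusted for this. Neither single-factor condition was clearly the nearer one, since 231 exclusive ERRs lay nearer to a shNT + OHT region, 203 nearer to a shCDK12 region and 22 equally far from both.

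**Figure D3:**
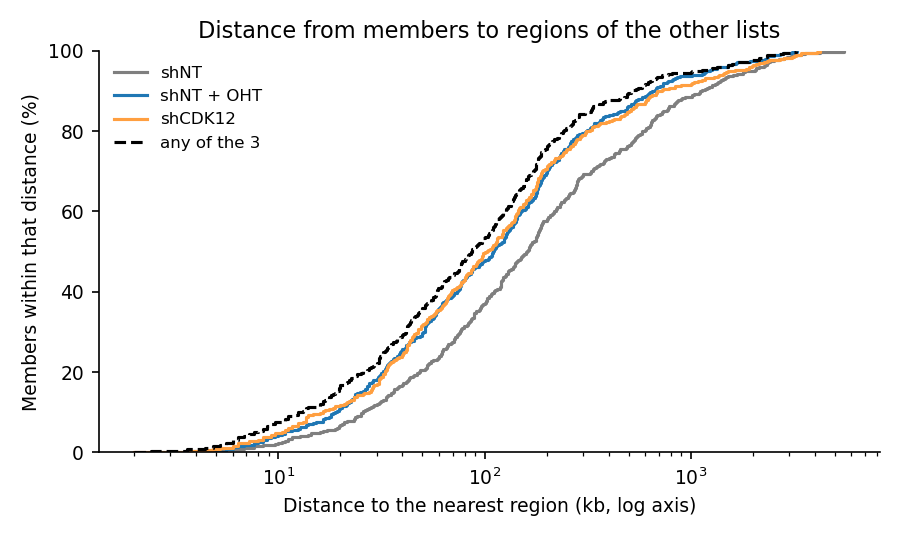
Cumulative share of the 456 exclusive ERRs, in percent, whose nearest region of another list lies within the distance on the log axis, in kb. Lines stand for shNT (grey), shNT + OHT (blue), shCDK12 (orange) and any of the 3 (dashed). The lines of shNT + OHT and shCDK12 run together, with medians of 110.0 and 102.4 kb. The line of shNT, the list with the fewest regions, lies to the right, with a median of 159.8 kb.

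The most remote exclusive ERRs had the lowest median width, although its interval overlapped that of the closest class. Measured from the centre of the exclusive ERR, so that a wide one was not nearer by its own width, the median width was 36 kb (30.4 to 43.6 kb) for the 53 that lay over 500 kb from another list. It was 47.2 kb (38.8 to 51.6 kb) for the 77 within 50 kb, 52 kb for the 129 from over 50 to 100 kb and 49.6 kb for the 197 from over 100 to 500 kb, with no order among these 3 classes. Measured from the edges, the medians ran from 58.4 kb within 10 kb to 35.2 kb beyond 500 kb. Density was 22.7, 22.7, 22.6 and 23.6 reads per kb in the 4 classes by centre. Each exclusive ERR sat in a gap, a stretch free of other lists, which had a median of 611.2 kb over the 455 that had regions of other lists on both sides, and the exclusive ERR filled a median of 8.37% of it. In 84 (18.5%) it filled at least 25%, and in 17 (3.74%) at least 50%.

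The 3 exclusive ERRs closest to failing the rule were chr10:52313201-52382000, chr3:126364801-126427200 and chr11:61914801-61998800. They ended 2 kb from a shCDK12 region, 2.4 kb from a shNT region and 3.6 kb from a shNT region, and were 68.8, 62.4 and 84 kb wide. Just outside the rule were chr2:89216001-89224000 (8 kb), chr9:70004801-70010400 (5.6 kb) and chr1:85519601-85524800 (5.2 kb), in which the other lists together covered only 0.4 kb. Just outside the rule, such near misses were rare. Of the 3787 joined regions that shCDK12 + OHT shared with another list, 76 held under 2 kb of the other lists, and in 9 the other lists covered under 10% of the width. Inside the rule, membership also depends on breaks in the shCDK12 + OHT list itself. The next region of that list lay at least 4.4 kb and a median of 57.8 kb from an exclusive ERR, and within 100 kb of 294 (64.5%). For the 34 within 10 kb of another list, that median was 6 kb. How many would have been joined to a shared region without such a break was not tested.

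The 5 exclusive ERRs farthest from any other list lay on 3 chromosomes. The first, chr13:103339201-103373600, was 34.4 kb wide with 882 reads, and the nearest region of another condition, in shCDK12, was 3239.2 kb away. On chromosome 8, chr8:107071601-107107600, chr8:107203601-107245200 and chr8:107459201-107482000 were 36, 41.6 and 22.8 kb wide and held 840, 955 and 601 reads. They formed a run of 3 over 410.4 kb, 2690 to 3077.6 kb from the nearest region of another list. On chromosome 7, chr7:86936801-86984800 was 48 kb wide with 1121 reads, and a shNT + OHT region lay 2805.2 kb away. Their densities, 22.96 to 26.4 reads per kb, were inside the range of the other exclusive ERRs.

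Exclusive ERRs tended to have one another as neighbours. Of the 911 regions that flanked them on the joined map, 158 (17.3%, Wilson 15.02% to 19.9%) were exclusive ERRs themselves, against 753 of the 8817 flanks of other joined regions (8.54%, 7.97% to 9.14%). Their flanks were less often regions shared by all 4 lists, with 441 of 911 (48.4%) against 61.2%. Regions of both silenced lists made up 6.48% of their flanks against 4.23%, and regions of both OHT lists 4.50% against 3.67%. Regions of shNT + OHT alone made up 4.28% against 4.63%, and regions of shCDK12 alone 2.41% against 2.29%. Flanks of neighbouring regions are not independent of each other, and these shares were not tested.

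Most exclusive ERRs were nevertheless single. There were 312 with no exclusive ERR next to them, 52 pairs, 12 runs of 3 and 1 run of 4 with no region of another list between. The run of 4 lay at chr12:3976401-4379600, spanned 403.2 kb and was covered over 298 kb. Its members were chr12:3976401-4042800 (66.4 kb, 1298 reads), chr12:4096001-4156400 (60.4 kb, 1503 reads), chr12:4203601-4296400 (92.8 kb, 2077 reads) and chr12:4301201-4379600 (78.4 kb, 1552 reads). The runs of 3 were of very different spread, from 211.2 kb for chr10:52170801-52382000, of which 147.2 kb was covered, to 4831.6 kb for chr4:103911601-108743200, of which 101.2 kb was covered.

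The rule did not use the chromosome as such. Every autosome held exclusive ERRs, from 4 on chromosome 19 to 53 on chromosome 2. Their share of the joined regions was highest on chromosome 8, with 37 of 223 (16.6%, Wilson 12.3% to 22.03%), and on chromosome 6, with 32 of 223 (14.3%, 10.4% to 19.6%). It was lowest on chromosome 19, with 4 of 122 (3.28%, 1.28% to 8.13%), and on chromosome 17, with 12 of 220 (5.45%, 3.15% to 9.29%). On these 4 chromosomes the interval did not include the 9.33% over all autosomes, and on the other 18 it did. The interval is for each chromosome alone and was not adjusted for the 22 examined.

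**Figure D4:**
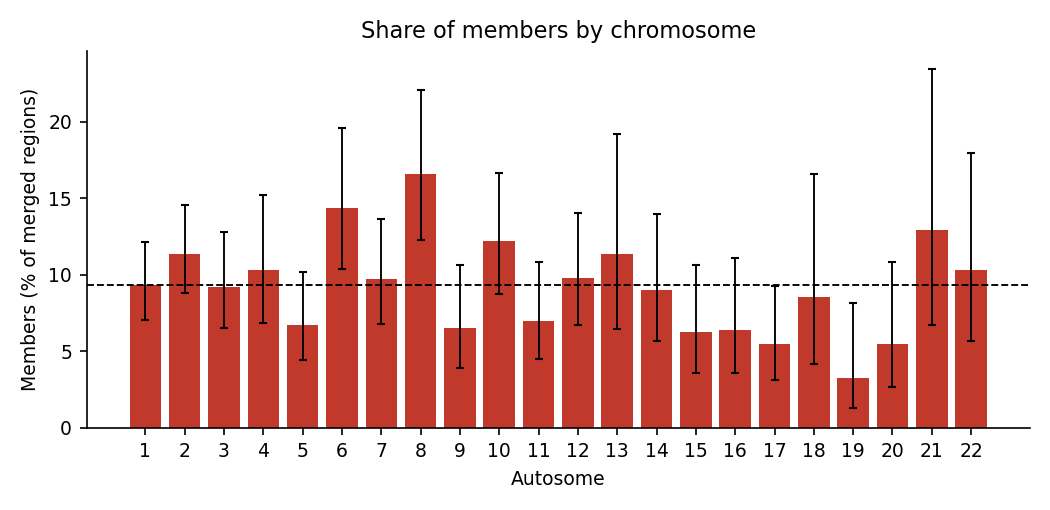
Exclusive ERRs (members) as a percent of the joined regions on each of the 22 autosomes, with 95% Wilson intervals as error bars and the share over all autosomes, 9.33%, as a dashed line. Chromosomes 6 and 8 lie above the line with their whole interval, and chromosomes 17 and 19 below it.

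The rule leaves less room for exclusive ERRs where the other lists cover much of a chromosome, so these shares are not independent of that coverage. In shNT, ERRs covered 42.3% of the span of chromosome 19 and 40.9% of chromosome 17, against 12.0% of chromosome 8 and 9.50% of chromosome 6. On chromosome 22 they covered 52.5%, and the share of exclusive ERRs was 10.3% (10 of 97). On chromosome 5 they covered 10.6%, and the share was 6.73%. Over the 22 autosomes the Spearman correlation of this coverage with the share was -0.54, and its cause was not tested. The median width of exclusive ERRs ranged from 35.6 kb on chromosome 16 (11 regions) to 61.6 kb on chromosome 14 (17 regions).

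In windows of 5 Mb, 253 of the 541 windows with any joined region held an exclusive ERR, and 22 held at least 4. The most were 7 of 16 joined regions in chr6:25000001-30000000 and 7 of 26 in chr12:1-5000000, the second of which includes the run of 4. Windows chr1:115000001-120000000 and chr2:85000001-90000000 held 6 each, of 15 and 22. In chr1:230000001-235000000 and chr10:45000001-50000000, exclusive ERRs were 50% of the joined regions, 5 of 10 and 4 of 8. The share over all autosomes was 9.33%. These windows were picked from the 541 for their many exclusive ERRs, each holds few joined regions, and their shares were not tested. There were 13 windows with exclusive ERRs and no region shared by all 4 lists, and these held 18 exclusive ERRs.

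Exclusive ERRs were only a part of the sequence listed in shCDK12 + OHT and nowhere else. On the autosomes 71.9 Mb was in this list alone, of which 23.9 Mb (33.2%) lay in exclusive ERRs. A larger amount, 31.7 Mb (44.1%), lay inside joined regions that all 4 conditions shared, where the shCDK12 + OHT region ran farther than the others or bridged them. Joined regions missing only in shNT held 8.07 Mb (11.2%), those of both silenced lists 4.64 Mb (6.45%) and those of both OHT lists 3.05 Mb (4.25%). The part in exclusive ERRs was highest on chromosome 13 (53.0% of 1.00 Mb), followed by chromosomes 8 (47.1% of 4.41 Mb), 21 (45.4% of 0.879 Mb) and 6 (43.7% of 3.97 Mb). It was lowest on chromosome 19 (18.9% of 1.12 Mb).

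The width of the shared regions next to exclusive ERRs was compared between conditions. These shared regions are not themselves exclusive ERRs, but the comparison is not independent of the rule, which places exclusive ERRs where the shCDK12 + OHT list reached and the other 3 lists did not. For this, 2061 joined regions that each list held exactly once were used, with the distance to an exclusive ERR measured from the limits in shNT, so that a broad region in shCDK12 + OHT was not closer by its own width. Over all 2061, the median log2 ratio of width in shCDK12 + OHT against shNT + OHT was 0.01, with 33.4% over 1.1-fold wider and 21.3% over 1.1-fold narrower. Over the 340 that were the nearest such region to an exclusive ERR it was 0.10 (95% interval of the median 0.05 to 0.14), with 151 (44.4%) wider and 53 (15.6%) narrower.

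The difference was largest close to exclusive ERRs. At 0 to 50 kb from one, 69 shared regions had a median log2 width ratio of 0.25 (0.07 to 0.39) for shCDK12 + OHT against shNT + OHT, and 37 of them (53.6%) were wider while 5 (7.25%) were narrower. At 50 to 200 kb the median was 0.13 (0.06 to 0.23, n = 154), at 200 to 1000 kb 0.05 (0.03 to 0.08, n = 449) and beyond 1000 kb 0.00 (n = 1389), where 29.2% were wider and 24.6% narrower. The median width of the 69 closest was 76 kb for shCDK12 + OHT, against 53.2 kb for shNT + OHT, 50.8 kb for shNT and 48.8 kb for shCDK12. In the same order, the medians over all 2061 were 72.8, 67.6, 66.4 and 60.8 kb.

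The median width of the closest shared regions was thus below that of all such regions in 3 conditions and above it in shCDK12 + OHT. Among regions of 25 to 95 kb in shNT the order by distance held, with median log2 ratios of 0.34 (0.11 to 0.58, n = 49), 0.16 (n = 112), 0.10 (n = 269) and 0.00 (n = 792). A shared region counts here only if its shCDK12 + OHT version did not run into the exclusive ERR, since the pair would otherwise have been joined. No replicate error is available for any of these ratios, and they are given as a description.

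Against shCDK12, the widths in shCDK12 + OHT showed a like order. Over all 2061 regions the median log2 ratio was 0.08, with 42.1% wider and 11.5% narrower. It was 0.31 (0.11 to 0.48) at 0 to 50 kb from an exclusive ERR, with 43 of 69 (62.3%) wider, and 0.06 (0.05 to 0.07) beyond 1000 kb. Both comparisons use the same shCDK12 + OHT list, so they are not independent of each other.

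Neither factor alone came with such widening. For shNT + OHT against shNT the median log2 ratio was 0.00 over all 2061, with 19.5% wider and 18.8% narrower, and -0.02 (-0.08 to 0.06) at 0 to 50 kb, with 18 wider and 16 narrower. For shCDK12 against shNT it was -0.05 over all, with 15% wider and 35.9% narrower, and -0.05 (-0.12 to 0.02) at 0 to 50 kb, with 16 wider and 23 narrower. So at the closest distance the median width ratio lay above 0 only in the comparisons of shCDK12 + OHT with shNT + OHT and with shCDK12. The rule favours this order, since the distance classes start from places that only the shCDK12 + OHT list reached. The comparisons without that list are therefore not a control for it.

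**Figure D5:**
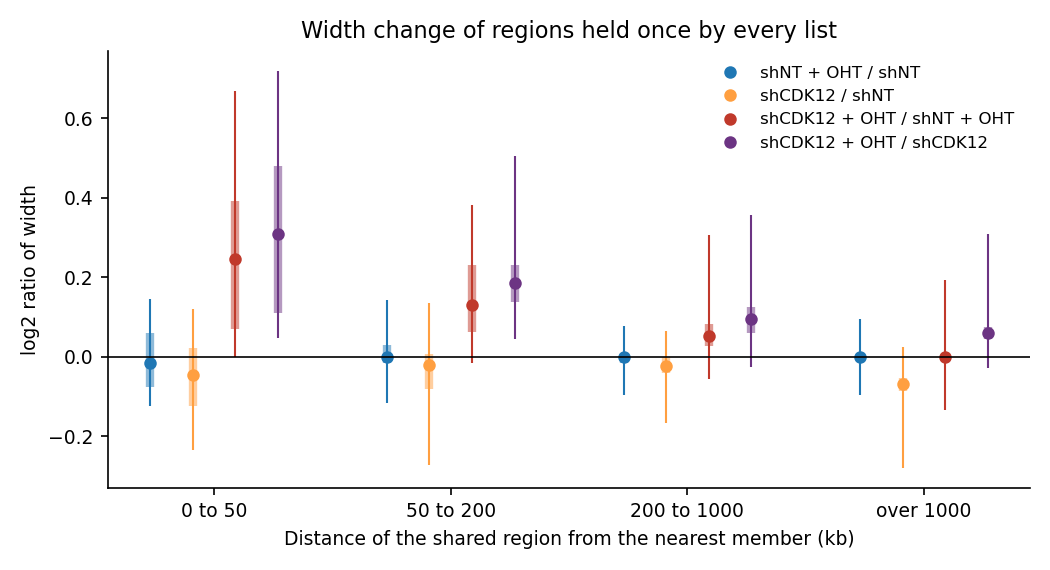
log2 ratio of width between 2 conditions for shared regions held once by every list, grouped by distance in kb to the nearest exclusive ERR (member). Points are medians, thick bars their 95% intervals and thin lines the 25th to 75th percentiles over 69, 154, 449 and 1389 regions from left to right. The 2 ratios of shCDK12 + OHT (red against shNT + OHT, purple against shCDK12) are highest at 0 to 50 kb, with 0.25 and 0.31, while the ratios of shNT + OHT (blue) and shCDK12 (orange) against shNT stay near 0 there.

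Read density in the same shared regions followed the same order against shNT + OHT. The median log2 ratio of reads per kb in shCDK12 + OHT against shNT + OHT was -0.70 over all 2061 regions, beside 28573223 against 49994993 reads in the 2 lists. It was -0.57 (-0.75 to -0.50) at 0 to 50 kb from an exclusive ERR, -0.62 (-0.70 to -0.57) at 50 to 200 kb, -0.65 (-0.69 to -0.62) at 200 to 1000 kb and -0.73 (-0.75 to -0.70) beyond 1000 kb. The intervals of the last pair of classes did not overlap. Against shCDK12 the same ratio showed no such order, with 1.03 (0.92 to 1.12), 0.99, 1.00 and 0.98 in the 4 classes and 0.98 over all.

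The edges of the closest shared regions were also taken one by one, for the 69 that had an exclusive ERR within 50 kb on 1 side only. In shCDK12 + OHT against shNT + OHT, the edge facing the exclusive ERR lay a median of 5.2 kb farther out (95% interval 0.8 to 8.8 kb), and in 49 of 69 (71.0%) it lay outward and in 14 inward. The edge facing away lay 1.2 kb farther out (-0.4 to 4.8 kb), with 39 (56.5%) outward and 27 inward. Over all 4122 edges the median was 0 kb, with 44.4% outward. Within the same region the facing edge moved out by a median of 1.6 kb more than the other, and the 95% interval of that median, -1.6 to 6.4 kb, included 0. With distances measured from the limits in shCDK12 or in shNT + OHT, the facing edge lay 7.2 kb farther out in both and the difference between the edges was 3.2 kb in both (0 to 10 kb and -0.4 to 6.8 kb). Against shCDK12 the facing edge lay outward in 52 of 69 (75.4%) and the other edge in 44 (63.8%), beside 55.5% of all edges. For shNT + OHT against shNT the facing edge lay outward in 32 of 69 (46.4%), beside 41.7% of all edges, and for shCDK12 against shNT in 24 of 69 (34.8%), beside 31.6%.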

How the data were processed

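Per the labels, EdU-HU-seq was done on 12 samples, and the authors deposited 1 list of regions per condition, made from the merged reads of its 3 samples. The submitters' processing notes name BWA 0.6.2, SAMtools and SICER and the builds hg19 and mm10, without saying which tool did what. The file headers name no control library. On 14 of 25 chromosomes the last regions ended beyond the hg38 chromosome by over a window, so the hg38 genome at hand was not used. In the deposited lists a read count is a whole number per region, not scaled to library size, and the deposited score comes from the authors' processing, never exceeded 1000 per 400 bp window and was used only to rank regions inside a list and for a common lowest score. All limits lay on a grid of 400 bp windows, and regions of a list were at least 4400 bp apart, so shorter interruptions were bridged.

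Regions were joined where they overlapped by at least 1 bp or touched. Widths, reads per kb, distances and ratios were computed from the joined and single regions. Because each condition has 1 list, no test was run. Shares carry Wilson 95% intervals and medians exact binomial (order statistic) intervals, which cover only counting error and how regions differ. Regions named are the 10 widest, the 5 with most reads per kb among those of at least 10 kb, the 5 with the highest score, the 5 farthest from the other lists, the longest run, and 3 on each side of the rule. The exclusive ERRs, the sets beside them and this naming rule were chosen with earlier results of these data known, and the distance classes, windows and edges were added after seeing the data. Alternatives covered the distance that counts as present, a common lowest score, lists of equal number, narrow regions, chromosomes X, Y and M, and touching regions. All 200 regions planted in simulated lists were recovered. They were planted well clear of other regions, in near copies of the shNT list. This checked the code only, not calls close to the limits of the rule. The work was done in Python 3.11.15 with pandas 2.3.3, numpy 2.4.6, matplotlib 3.10.9 and scipy 1.17.1.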

Additional observations from a re-analysis of the deposited data

Results flagged for a closer look

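Outside the autosomes, 6 regions on chromosomes X and Y were held by the shCDK12 + OHT list alone, in data that the comparisons above left out. Of the 97 joined regions on chromosome X, 5 (5.15%) were of this kind, against 9.33% on the autosomes. They were chrX:67878801-67951200 (72.4 kb, 1506 reads), chrX:69636401-69668000 (31.6 kb, 806 reads), chrX:71123601-71177200 (53.6 kb, 1108 reads), chrX:100230001-100256800 (26.8 kb, 782 reads) and chrX:106939601-106995600 (56 kb, 1156 reads). Their densities, 20.6 to 29.2 reads per kb, were inside the range of the autosomal exclusive ERRs. The region on chromosome Y was 16.8 kb wide with 369 reads. Its score, 1070, was above the highest of the autosomal exclusive ERRs, 1023. Whether its reads came from a chromosome Y in these cells was not tested, so it is not taken as an ERR here.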

How the results depend on the processing

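The number of exclusive ERRs and their length, 456 over 23.9 Mb, moved to 292 over 14.6 Mb when a region of another list within 50 kb counted as present, and to 689 over 36.6 Mb when all lists began at a common lowest score of 146. At the common lowest score 404 of the 456 stayed. The added ones came from dropping low-scored regions of shNT + OHT and shCDK12, whose lowest scores were 99.9 and 66.1. With the 50 kb limit the median width was 45 kb and the median distance to another list 160.6 kb. With the 3874 highest-scoring regions of each list the median width was 64 kb and the density ratio to shared regions 0.588, and without regions under 10 kb that ratio was 0.580. By covered length in place of number, the share was 8.11% on chromosome 8 and 0.741% on chromosome 19, against 3.96% over all autosomes, so these chromosomes stayed on their side of it. For the shared regions nearest to an exclusive ERR, limiting them to 200 kb moved the median log2 width ratio to 0.16 for shCDK12 + OHT against shNT + OHT and to -0.014 for shCDK12 against shNT. The cause of the other shifts was not tested. In alternatives added after seeing the data, regions of shNT + OHT alone numbered 163 with the common lowest score, 131 with lists of equal number and 145 with the 50 kb limit, against 227, and regions of shCDK12 alone 15, 37 and 78, against 113, while exclusive ERRs numbered 689, 314 and 292. With distances measured from the shNT + OHT limits, also added after seeing the data, the median log2 width ratio within 50 kb of an exclusive ERR was 0.19, against 0.25. Of 53 alternative values, 36 stayed within the limits set for a shift and 17 did not. These limits were wide for counts, since 314 exclusive ERRs in place of 456 was within them.

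No paired analysis was possible because each condition has 1 merged list, and for the same reason leaving out single replicates was not possible. The sources used here do not say if scores share a scale across lists, and full library sizes were not used here. An exclusive ERR is a region that was not listed in the other conditions, which does not show that no early replication took place there.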
